A study of Mus musculus with 18 samples.

Results

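The ileum at baseline was described from 6 arrays, those of the Pgc1α fl/fl mice kept on chow, out of 18 arrays of 18 mice in the whole study. Pgc1α fl/fl mice, written iPGC1afl/fl in the labels, carry a *Ppargc1a* allele flanked by loxP sites and no Cre recombinase, so that the gene is not deleted. They are the controls of iPgc1α-/- mice, in which Cre runs under the Villin promoter of the intestinal epithelium. All were on a C57BL/6J background, started at 8 weeks of age, ate chow for 8 weeks and were sacrificed at Zeitgeber time 3 after fasting. The other 12 arrays, of 6 Pgc1α fl/fl and 6 iPgc1α-/- mice on a Western diet, entered no value given here.

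Each array held Cy3-labelled cRNA from the cells that a chelating buffer had released from the opened ileum of 1 mouse. The buffer withdraws the calcium that joins epithelial cells, and the fractions of one ileum were collected together. Signals are therefore those of a mixed population, in which fewer cells of a type and less RNA per cell cannot be told apart. A gene is represented by the brightest of its probes, and its signal is the log2 of the median spot intensity after quantile normalization over the 6 arrays. It was called detected where Feature Extraction flagged that probe as well above background on all 6 arrays, and not detected where it did so on none. Probes differ in how well they hybridise, so the order of the signals is not an order of transcript amounts. Values are means ± SD of 6 mice unless single arrays are named.

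The ileum is the last stretch of the small intestine. Its villi are covered mainly by absorptive enterocytes, with mucus-secreting goblet cells, hormone-secreting enteroendocrine cells and chemosensory tuft cells between them, and with lymphocytes lodged inside the epithelium. In the crypts, stem cells and their dividing progeny lie beside Paneth cells, which secrete antimicrobial peptides. What marks the ileum among the intestinal segments is the recovery of conjugated bile acids through an apical transporter, a cytosolic binding protein and a basolateral heteromeric exporter, under the control of the nuclear receptor FXR.

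The 6 arrays resembled each other. On each, 59.7% to 61.9% of the 59305 spots that are not controls passed as well above background, the median intensity was 47 to 53.5 against 18 to 20 around the spots, and 0 spots were saturated. Correlations between arrays, computed over genes that are not independent of each other, lay between 0.988 and 0.996. Along the first principal component, which held 32.2% of the variance, array 3 stood farthest out at -37.9 while the other 5 lay between -9.3 and 20.38. Arrays 1 and 3 lay on slide 1, arrays 5 and 6 on slide 2, and arrays 2 and 4 on slide 3.

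Of the 30 gene symbols with the brightest probes, 20 were represented by a probe that contains a sequence found in front of many genes. To find such probes, each probe was searched on both strands for words of 15 bases that occur in the promoter windows of at least 10 genes, among 32851 windows of 300 bases for 27025 genes from RefSeq (GRCm38.p6). Words of this kind occurred in 980 of the 56605 probes (1.73%) and in 767 of the 37074 chosen ones (2.07%), against 42 of the 100 brightest gene names. Their share rose from 0.727% of the gene names with a signal between 4 and 5 to 51.5% of those between 17 and 18. Stretches of 8 such probes and of the probes of *Fabp2* and *Fabp6*, which hold no such word, are printed from their array sequence, 5′ to 3′, to show what the brightest spots can hybridise to, with the shared word in capitals:
Elk1, 18.06, chrX:20510521-20510580, minus strand: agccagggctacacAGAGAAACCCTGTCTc
Glrx2, 18.03, chr1:145596708-145596767, plus strand: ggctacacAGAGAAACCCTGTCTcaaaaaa
Med16, 17.74, chr10:79357669-79357728, minus strand: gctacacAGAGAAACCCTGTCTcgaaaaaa
Pirb, 17.61, chr7:3663046-3663105, minus strand: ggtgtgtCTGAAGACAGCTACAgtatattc
Ppm1k, 17.61, chr6:57458598-57458657, minus strand: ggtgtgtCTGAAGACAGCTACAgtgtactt
Medag, 17.56, chr5:150234212-150234271, plus strand: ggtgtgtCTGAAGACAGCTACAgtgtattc
Rhox8, 17.79, chrX:35231462-35231521, minus strand: aGAAGAAGAAGAAGAAgaagaagaagaaga
Gcm1, 17.69, chr7:123731567-123731626, minus strand: GAAGAAGAAGAAGAAgaagaagaagaagaa
Fabp2, 18.18, chr3:122602276-122602335, plus strand: aggctcattcgtcatcctatcagcactggt
Fabp6, 17.22, chr11:43410973-43411032, minus strand: aaggtggtggcagagttccccaactatcac
The number after each name is the log2 signal, the positions are those of the whole 60-base probe as the array files give them on mm9, and each stretch is 30 bases of it. The first word occurred in promoter windows of 46 genes, the second likewise of 46, and the GAA run of 22. *Elk1*, *Glrx2* and *Med16* thus share 1 stretch almost letter for letter although they lie on 3 chromosomes, and so do *Pirb*, *Ppm1k* and *Medag*. Interspersed SINE elements and simple repeats are known to lie in many mouse transcripts.

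Other probes for the same genes gave far lower signals. *Elk1*, an ETS transcription factor, had 3 probes, at 18.06 for the brightest and 5.89 and 4.57 before normalization for the others. For *Slc10a1*, the sodium-dependent bile acid carrier of hepatocytes, the brightest probe stood at 18.10 and its only other probe at 4.60, in the range of probes that were not detected. Of the 403 chosen probes with a shared word whose gene had other probes, 241 (59.8%) had one more than 4 log2 units dimmer. Over all 11876 genes with several probes the number was 2772 (23.3%). These shares are not matched for brightness. The median signal before normalization was 9.83 for chosen probes with a shared word and 5.54 for the other chosen ones. A probe that bright at most cannot have another 4 log2 units dimmer, as signals end near 5, so the shares cannot be compared directly. Genes were affected in some of the cell type lists as well. *Siglech*, a marker of plasmacytoid dendritic cells, went from 16.42 to 5.23 when such probes were left out, *Snap25*, a synaptic protein, from 14.60 to 5.00, and *Cd4* from 13.15 to 5.47. What these probes hybridised to was not tested, and genes are marked as shared-word probes where they are named below.

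**Figure D1:**
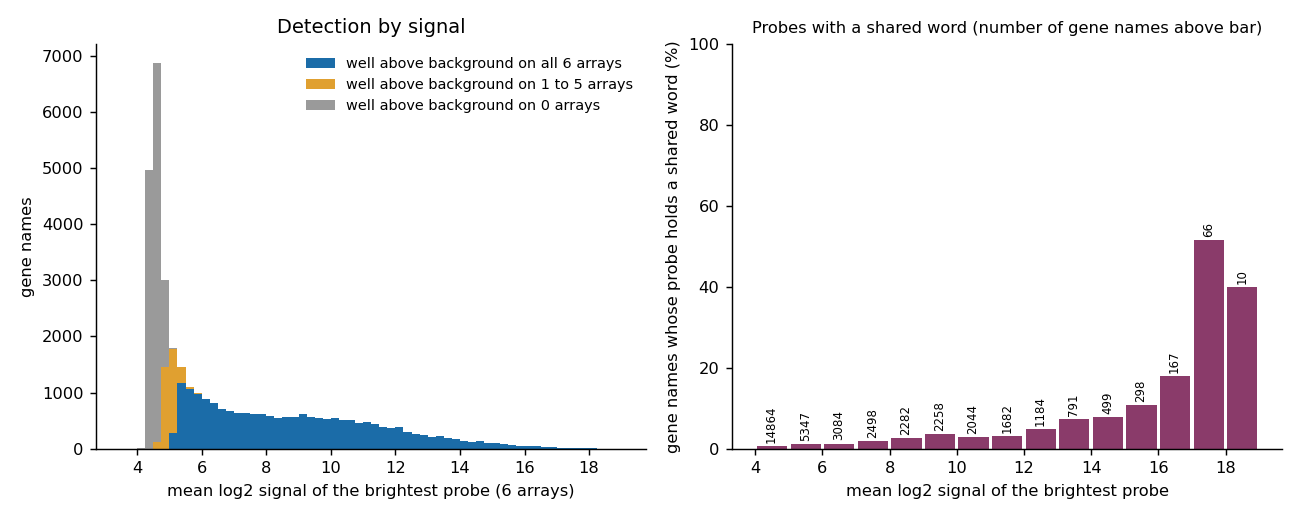
The left panel gives the number of gene names by mean log2 signal over the 6 arrays, divided into those well above background on 0, on 1 to 5 and on all 6 arrays, and the right panel the percentage of gene names in each signal band whose brightest probe holds a word of 15 bases shared with promoter windows of 10 or more genes. Genes detected on no array end at 5.02, and the share with a common word reaches 51.5% between 17 and 18.

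Without these probes, and among names that match a gene symbol, the brightest signals came mainly from products of the enterocyte, the Paneth cell and the mitochondrial genome. *Fabp2*, the intestinal fatty acid binding protein, read 18.16, 18.24, 18.16, 18.19, 18.24 and 18.10 on arrays 1 to 6 (18.18 ± 0.05). The alpha-defensins *Defa23* (18.18), *Defa24* (18.08), *Defa2* (17.89) and *Defa3* (17.71), antimicrobial peptides of Paneth cell granules, stood among the first 8 names, with *Actb* (18.08) and *Crip1* (17.97), a LIM-domain protein. They are near-identical in sequence, so their probes may share transcripts. Further down came the mitochondrial cytochrome oxidase subunits *COX2* (17.78) and *COX1* (17.38), the brush-border aminopeptidase *Anpep* (17.55), the goblet cell lectin *Zg16* (17.40), the C-type lectins *Reg3g* (17.40) and *Reg3b* (17.37), which bind bacteria, and the epithelial keratins *Krt8* (17.29) and *Krt20* (17.07). The bile acid binding protein *Fabp6* was in this group at 17.22. Among the 20 brightest of these names it had the largest SD, 0.51, with 16.70, 17.68, 16.74, 17.96, 17.02 and 17.22 on arrays 1 to 6, and 95.5% of its variance lay between the slides.

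In all, 20355 of the 37074 gene names (54.9%) were detected, 13282 (35.8%) were not detected on any array, and 3437 lay between, well above background on 1 to 5 arrays. Of the 23666 names that match a gene symbol, 14332 (60.6%) were detected. The median signal was 8.47 for detected names and 4.54 for those detected nowhere. The dimmest detected name stood at 5.05 and the brightest undetected one at 5.02, so a signal near 5 marks the floor below which no level can be read. Signals above 12 were reached by 3016 names and above 15 by 541. Names were also sorted by chromosome, as the array files place the chosen probe. Detection ranged from 47.1% of the 17 names on chromosome Y and 47.3% of those on chromosome X to 63.2% of those on chromosomes 11 and 19. All 16 names of the mitochondrial genome were detected.

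Gene families ranged widely in the share of genes detected, beside 54.9% of all gene names. Cytosolic ribosomal proteins were detected for 81 of 84 genes, mitochondrial ribosomal proteins for 73 of 74, proteasome subunits for 37 of 39 and complex I subunits of the respiratory chain for 36 of 36, with a median signal of 15.51 for the first and 13.76 for the last. Of the solute carriers, which move small molecules across membranes, 266 of 363 were detected, and of the zinc finger proteins 302 of 361. Nearer the share of all names lay cytochromes P450 with 54 of 96, keratins with 25 of 48 and chemokines with 17 of 36. Potassium channels (35 of 92) and interleukins (11 of 37) lay lower. At the other end stood the chemosensory receptors, with 97 of 1104 olfactory receptors, 24 of 259 vomeronasal receptors and 3 of 35 bitter taste receptors detected. The brightest olfactory receptor was *Olfr544* at 10.38 ± 0.13, between 10.21 and 10.54 on the single arrays. Defensins split by type. Alpha-defensins, the Paneth cell type, were detected for 14 of 19, beta-defensins, known from other epithelia, for 2 of 42, the brightest being *Defb7* at 5.56. Of the 25 claudins, the proteins that set the permeability of tight junctions, 13 were detected, led by *Cldn7* (16.35), *Cldn3* (14.20) and *Cldn15* (13.76).

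Markers of every epithelial lineage examined were detected. The 20 markers of absorptive enterocytes were detected without exception, with signals from 12.13 for *Slc5a1*, the sodium-glucose cotransporter, to that of *Fabp2*, and a median of 15.76. All 14 goblet cell markers were detected, from the granule protein *Sytl2* (7.39) to *Zg16*, with the gel-forming mucin *Muc2* at 16.30 ± 0.21 and the trefoil peptide *Tff3* at 16.92 ± 0.07. All 13 Paneth cell markers that the array carries by name were detected, among them lysozyme *Lyz1* at 16.38 ± 0.32 and the protease *Mmp7*, which activates alpha-defensins, at 13.02.

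Enteroendocrine cells were represented by 21 of 22 markers. Secretin (*Sct*) gave 14.20 ± 0.20, the granule protein *Chga* 12.63 ± 0.25, somatostatin (*Sst*) 11.83, neurotensin (*Nts*) 10.63 ± 0.51 and cholecystokinin (*Cck*) 10.09 ± 0.33. The hormone *Insl5*, known from colonic L cells, was the one marker of the list not detected (4.74). Lineage transcription factors lay close to the floor, with *Neurog3*, which commits progenitors to this lineage, at 5.19 and *Pax4* at 5.61. Of the 16 tuft cell markers 13 were detected, with the channel *Trpm5* at 8.05 and the kinase *Dclk1* at 6.80. The tuft cell regulator *Pou2f3* and the cytokine gene *Il25*, at 5.02 and 4.92, were above background on 2 arrays each.

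Crypt genes were detected as well. All 15 stem cell markers were detected, with signals from 7.03 for *Tert* to 11.45 for *Slc12a2*. *Lgr5*, the receptor that defines cycling crypt base stem cells, read 7.37, 7.01, 6.89, 7.45, 7.38 and 7.26 on arrays 1 to 6, and *Olfm4*, secreted by the same cells, 9.97 ± 0.36. All 16 genes of the cell cycle list were detected, led by *Stmn1* at 12.88, with the proliferation antigen *Mki67* at 11.73 ± 0.31.

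T cell genes were detected for 21 of 21 markers. The granule protease *Gzma* was the brightest at 14.46 ± 0.68 and the chemokine *Ccl5* followed at 14.13, both known from cytotoxic intraepithelial lymphocytes. *Cd3e*, a chain of the T cell receptor complex, read 11.19, 11.07, 11.05, 10.85, 10.48 and 10.16 on arrays 1 to 6. *Cd8a* stood at 8.84 and *Cd4*, without its shared-word probe, at 5.47. Among B cell genes 9 of 11 were detected, with *Cd79b*, a chain of the B cell receptor, at 9.60, and among plasma cell genes 5 of 7, with *Jchain*, which links IgA, at 9.72. The heavy chain gene *Igha* has no probe by that name.

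Other cell types gave weaker or partial signals. Macrophage markers were detected for 11 of 15 genes, with a median signal of 6.89 over the list. The brightest, *Lyz2* at 15.27, is a lysozyme and near-identical to *Lyz1*. *Adgre1* (4.52), *Cd163* (4.44) and *C1qa* (5.12, above background on 3 arrays) were not among the 11. Dendritic cells had 7 of 10, innate lymphoid cells 3 of 10, mast cells 5 of 10 and neutrophils 5 of 10 markers detected. Eosinophil markers were detected for 0 of 6, with *Ccr3* the brightest at 5.12. The layers under the epithelium were unevenly represented. Endothelial cells had 7 of 13 markers detected, none above the 7.31 of *Egfl7*, while *Cdh5*, *Kdr* and *Tek*, at 4.59, 4.53 and 4.50, were detected nowhere. Fibroblasts had 4 of 11, among them *Dcn* (7.90) and *Col1a2* (6.08), with *Pdgfra* and *Lum* not detected. Enteric neurons and glia had 7 of 14, or 5 with shared-word probes left out, and *Vip* and *S100b* were not detected. Smooth muscle markers were detected for 8 of 10, from *Des* at 5.39 to *Acta2* at 12.47, yet *Synpo2* and *Lmod1* were not detected. For comparison, 54.9% of all gene names and 60.6% of the names that match a symbol were detected. Marker lists of organs outside the digestive tract gave from 20% for lung to 62.5% for skeletal muscle. The shares of eosinophils (0%), innate lymphoid cells (30%) and fibroblasts (36.4%) lay below that of all gene names. Those of endothelial cells (53.8%), enteric neurons and glia, mast cells and neutrophils (50% each) were within 1 gene of it. With shared-word probes left out, enteric neurons and glia lay below it, at 5 of 14. Dendritic cells (70%), macrophages (73.3%) and smooth muscle (80%) lay above.

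**Figure D2:**
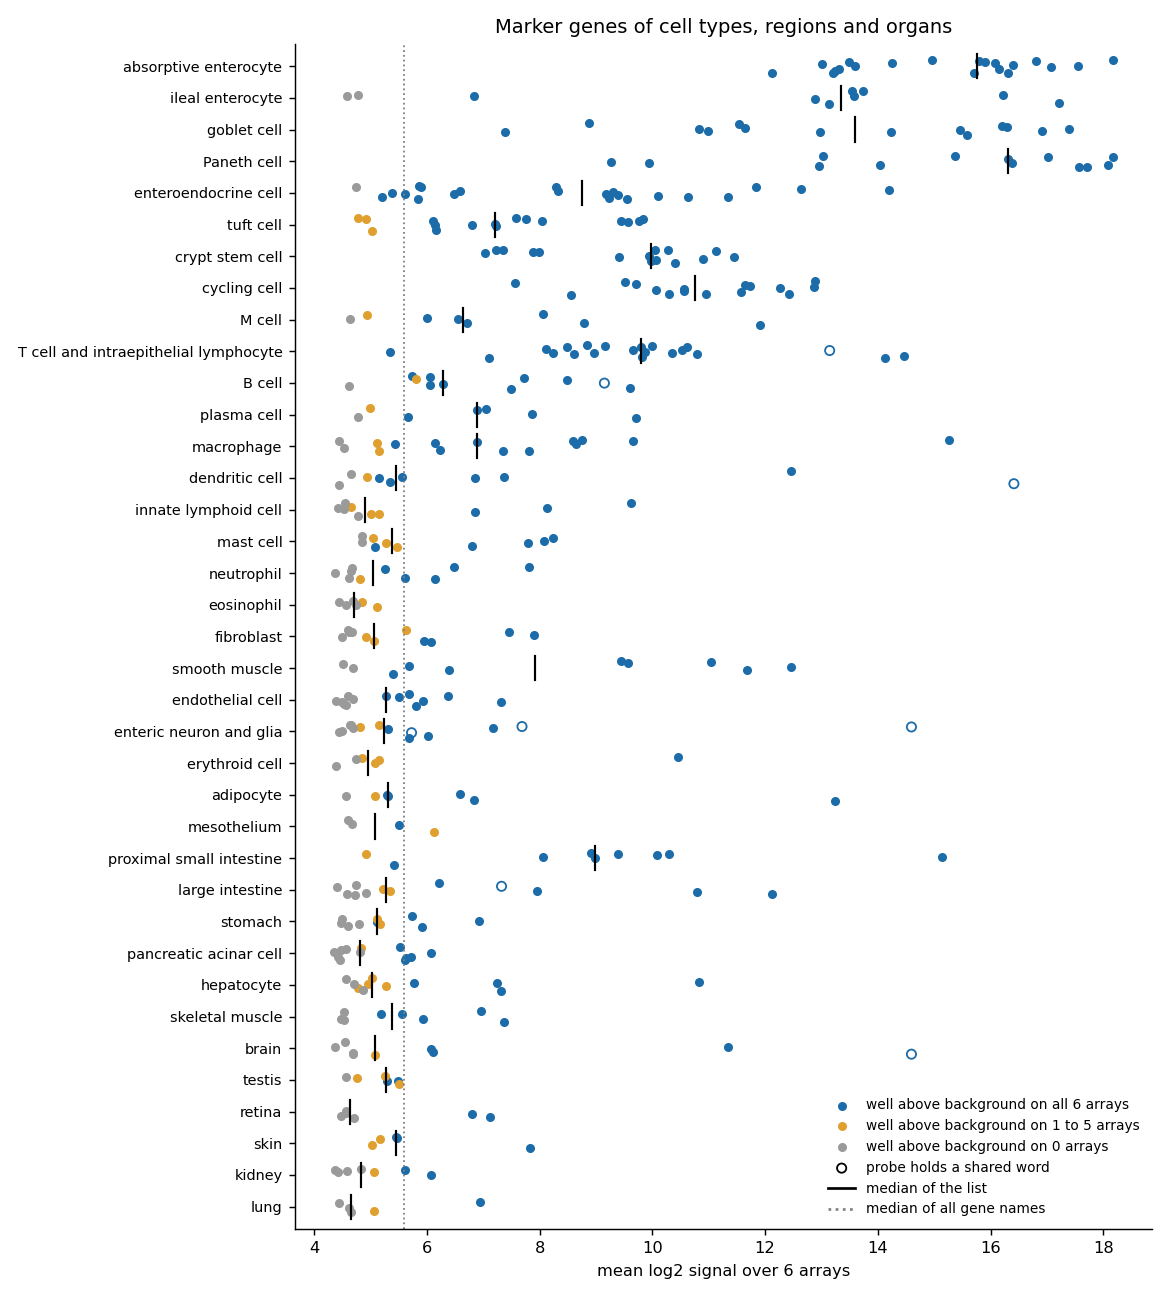
Each row is a list of marker genes for a cell type, a stretch of gut or another organ, and each point is the mean log2 signal of 1 gene over the 6 arrays, coloured by whether the gene was well above background on all 6, on 1 to 5 or on 0 arrays. The lists of absorptive enterocytes, goblet cells, Paneth cells, stem cells, cycling cells and T cells hold detected genes only, whereas 0 of the 6 eosinophil markers were detected.

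Of the 10 markers of ileal enterocytes 8 were detected, most of them from the bile acid pathway. The binding protein *Fabp6* (17.22), the exporter subunits *Slc51a* (16.22 ± 0.22) and *Slc51b* (13.58), the apical transporter *Slc10a2* (13.14 ± 0.70) and the receptor FXR (*Nr1h4*, 12.88 ± 0.37) were all detected, as were the vitamin B12 receptor chains *Cubn* (13.74) and *Amn* (13.55). *Slc10a2* read 12.21, 14.14, 13.32, 13.54, 12.50 and 13.13 on arrays 1 to 6, a range of almost 2 log2 units. The FXR target *Fgf15*, an enterokine that signals to the liver after a meal, was low, at 7.36, 6.22, 7.79, 6.94, 5.68 and 6.97. The FXR target *Nr0b2*, which encodes the repressor SHP, was detected on none of the 6 arrays (4.78), and the amino acid transporter *Slc6a14* likewise (4.59).

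Genes known for the proximal small intestine were nonetheless present, at 8 of 9. Lactase (*Lct*) read 15.45, 15.48, 15.21, 13.47, 15.52 and 15.75 on arrays 1 to 6, with array 4 apart from the other 5. The duodenal and jejunal factor *Gata4* stood at 10.30 ± 0.29 by its brightest probe, but at 5.58 before normalization by its only other probe. The incretin gene *Gip* stood at 9.38 ± 0.75, while *Pdx1*, the factor of duodenum and pancreas, was above background on 1 array (4.92). Large intestine genes were detected for 5 of 12, with *Slc26a3* (12.12) and *Car4* (10.80) the brightest, and stomach genes for 4 of 10, none above 6.92. Pancreatic acinar genes were detected for 5 of 12, none above 6.07, and hepatocyte genes for 4 of 11. From large intestine to hepatocyte these shares were 36.4% to 41.7%, below the 54.9% of all gene names. They lay within the 20% to 62.5% of the organs outside the digestive tract. Albumin (*Alb*) was above background on 1 array (4.77), and the bright hepatocyte gene of the list was *Serpina1a*, an antiprotease, at 10.83.

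Hox genes, which record position along the body axis, were detected for 10 of 39 (25.6%), against 54.9% of all gene names. They were *Hoxa3*, *Hoxa7*, *Hoxa9*, *Hoxb3* to *Hoxb7*, *Hoxb9* and *Hoxd4*. No gene of the HoxC cluster and none of the paralogue groups beyond 9 was among them. *Hoxb7*, the brightest, read 6.76, 8.42, 7.38, 8.60, 6.65 and 8.11 on arrays 1 to 6, *Hoxb6* 6.62, 7.88, 6.78, 8.26, 6.13 and 7.99, and *Hoxb9* 5.78, 8.16, 6.20, 7.52, 6.06 and 7.78. Between the slides lay 64.6%, 52.4% and 65.9% of the variance of *Hoxb7*, *Hoxb6* and *Hoxb9*. For these genes arrays 2, 4 and 6 were the 3 brightest, as they were for *Hoxb4*, *Hoxb5* and *Fabp6*. These 3 arrays were the brightest together for 1004 of the 21133 genes tested for spread (4.75%). *Hoxa3*, by contrast, was highest on array 3, at 7.39 against 6.75 to 6.92 elsewhere.

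Transcription factors of the intestinal epithelium were detected for 24 of 25 genes. The gut identity factors *Cdx1* and *Cdx2* gave 13.93 and 13.18, the nuclear receptor *Hnf4a* 15.09, the differentiation factor *Klf4* 15.79 and the lipid-regulating *Creb3l3* 15.12. *Gata5* was at 8.85 by a shared-word probe and at 4.83 by its other probe. Of 49 nuclear receptors 38 were detected, or 37 without shared-word probes, since *Esr2* fell from 11.77 to 4.42, where it was above background on 0 arrays. After *Hnf4a* the brightest were *Esrra*, a partner of Pgc1α in mitochondrial gene expression, at 14.35 and *Rxra*, the common heterodimer partner, at 14.14. *Esr1*, *Nr0b1* and *Rorb* were among the 8 detected nowhere. *Ppargc1a* itself read 11.31, 10.76, 11.33, 10.19, 11.22 and 11.28 on arrays 1 to 6 (11.02 ± 0.46), with array 4 lowest, and its relative *Ppargc1b* 10.60 ± 0.32.

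Absorption and processing of nutrients was covered almost completely. All 16 genes of brush-border peptidases and peptide transport, all 12 of sugar digestion and transport and all 16 of fat absorption and chylomicron assembly were detected. The disaccharidase *Sis* gave 16.08 ± 0.44, the apolipoprotein *Apoa4* 16.31 ± 0.57, the monoacylglycerol acyltransferase *Mogat2* 15.47 and the chylomicron scaffold *Apob* 15.25. The fatty acid translocase *Cd36* was the dimmest of the fat list at 7.76. In cholesterol handling, *Npc1l1*, the uptake transporter, stood at 14.47 and its opposing efflux partner *Abcg5* at 14.73, whereas *Scarb1* (5.16) was above background on 5 arrays. Of 27 genes of drug metabolism on the array 26 were detected, with *Cyp4f14* (15.87) and the carboxylesterase *Ces2e* (15.78) the brightest. *Cyp1a1*, the classical target of the aryl hydrocarbon receptor, was detected nowhere (4.54).

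Variation between the 6 mice was small for most genes. Among the 21133 genes well above background on at least 5 arrays, the median SD was 0.18 log2 units (a factor of 1.13), and 96.0% had an SD under 0.5, while 42 had an SD over 1 and 7 over 1.5. Spots of one probe printed several times on an array had a median SD of 0.12 to 0.15. The variance of each gene was tested against that of genes of the same brightness with limma. The test called 0 of 21133 genes (0%) at an adjusted p of 0.05, the lowest adjusted p was 0.455, and 1146 (5.42%) had an unadjusted p under 0.05. On simulated arrays this test recovered next to none of the genes given a much larger variance, so the count of 0 says nothing about how stable genes were. A second test in limma asked whether the 3 slides differed. It likewise called 0 genes (0%), with a lowest adjusted p of 0.582 and 1714 genes (8.11%) at an unadjusted p under 0.05. Slides held a median of 41.5% of a gene's variance, and 2 of the 5 degrees of freedom among 6 arrays lie between slides. The genes named in the following paragraphs are thus ordered by their SD as a description.

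**Figure D3:**
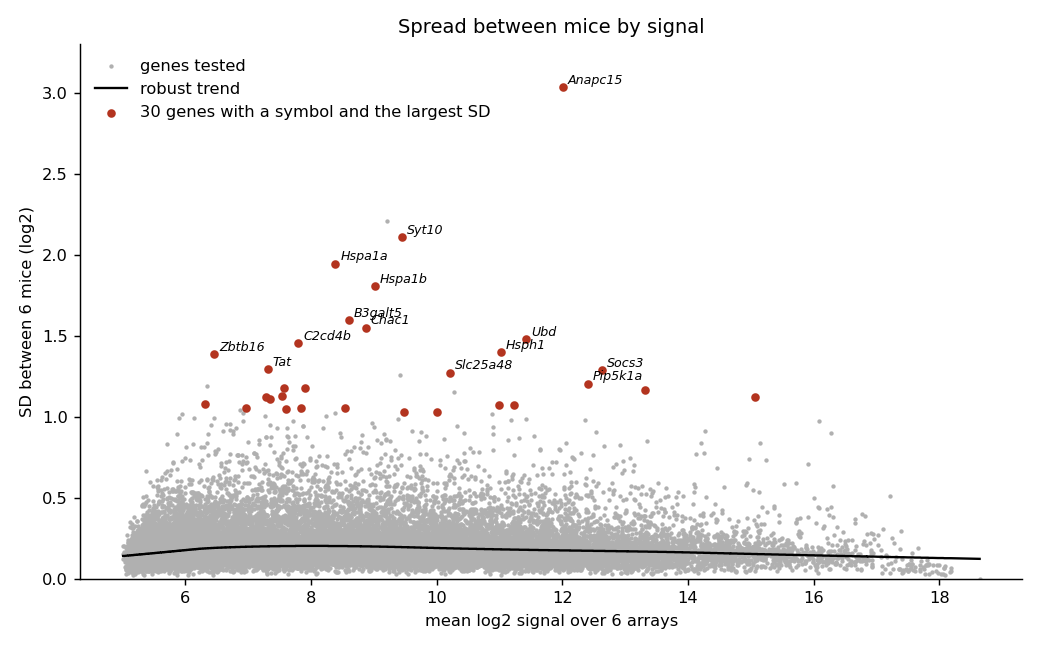
Each point is 1 of the 21133 genes tested, with the mean log2 signal over the 6 arrays on the horizontal axis and the SD over the 6 mice on the vertical axis, with the trend that limma fitted and the 30 genes with a symbol and the largest SD picked out. Most genes lie under an SD of 0.5, and *Anapc15* lies highest at 3.03.

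The largest SD, 3.03, belonged to *Anapc15*, a subunit of the anaphase-promoting complex, and came from 1 array. It read 18.19 on array 2 and between 10.57 and 11.07 on the other 5. A second probe for the gene, at 7.21 on array 2 and from 6.94 to 7.58 over all 6 before normalization, did not show it. Without array 2 the SD of *Anapc15* was 0.18. *Syt10*, a synaptotagmin, had the third largest SD of all names, after a RIKEN name that matches no symbol, and read 6.08, 11.89, 11.16, 8.08, 9.66 and 9.83 on arrays 1 to 6, and its other probe was detected on none.

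Heat shock genes came next. *Hspa1a*, which encodes an inducible Hsp70 chaperone, read 6.29, 11.11, 6.71, 9.20, 7.16 and 9.83 on arrays 1 to 6, a span of 28.4-fold, and its near-identical neighbour *Hspa1b* 7.13, 11.39, 7.26, 9.82, 7.97 and 10.53. *Hsph1*, an Hsp110 co-chaperone, read 9.50, 12.32, 9.23, 11.93, 10.81 and 12.32, and its second probe was likewise highest on array 2 and lowest on array 3. Arrays 2, 4 and 6 were the 3 brightest for all of these, as for *Dnajb1* (13.07, 12.93 and 12.91 against 11.51 to 12.30). Slides moved with these values. Both arrays of slide 1 were low, and 71.0% of the variance of *Hspa1a*, 72.3% of that of *Hspa1b* and 87.1% of that of *Hsph1* lay between slides, so that removing slide means took the SD of *Hsph1* from 1.40 to 0.65 and left that of *Hspa1a* at 1.35 and of *Hspa1b* at 1.23. In the limma test of slides their adjusted p was 0.590, 0.590 and 0.582, with 2 mice on each slide. Of the 30 genes with a symbol and the largest SD, 7 had these 3 arrays as their brightest, the others being *Slc25a48*, with 90.7% of its variance between slides, *Dcn*, *Slpi* and *Igfbp6*, with 48.9% to 51.5%. *Dcn*, a proteoglycan of connective tissue, was at 9.21, 8.00 and 9.28 on these arrays and at 6.30 to 7.42 on the rest. *Igfbp6*, which binds insulin-like growth factor, was at 8.57, 7.33 and 8.71 there and at 5.85 to 6.81 elsewhere. The mean over the 4 detected fibroblast markers ranged from 6.04 on array 3 to 7.61 on array 2, and the part of connective tissue in these differences was not tested.

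Another 6 of the 30 genes were brightest on arrays 4, 5 and 6, which was the case for 7.99% of all genes tested. *Socs3*, the feedback inhibitor of cytokine signalling through STAT3, read 11.32, 11.53, 12.13, 13.06, 12.96 and 14.83 on arrays 1 to 6. *Tat*, tyrosine aminotransferase, stood at 9.55 on array 6 and between 6.04 and 7.80 elsewhere. *B3galt5*, a glycosyltransferase, was at 9.59, 9.75 and 10.68 on these arrays and no higher than 7.46 on the other 3. *C2cd4b*, *Celsr3* and *Lrg1* completed the group.

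Array 3, the one set apart on the first principal component, held the highest value of *Zbtb16*, *Mt2*, *Rab30*, *Saa3* and *Pip5k1a*. Of all genes tested, 22.9% were highest and 21.9% lowest on this array, more than on any other. *Zbtb16*, a zinc finger factor known as a glucocorticoid target, stood at 9.01 there and at 5.22 to 6.75 elsewhere, while *Fkbp5*, another such target, was read by a shared-word probe, at 11.86 there against 9.30 to 10.71. Without that probe its mean went from 10.33 to 8.05. Metallothionein *Mt2* read 15.63, 14.42, 16.96, 14.39, 13.84 and 15.16 on arrays 1 to 6, and *Mt1* 16.63, 15.37, 17.32, 15.35, 14.96 and 16.88. *Angptl4*, an inhibitor of lipoprotein lipase that rises in fasting, was highest on the same array at 15.81, against 13.22 to 14.76, and *G6pc*, the last enzyme of gluconeogenesis, at 13.14 against 10.57 to 11.68. Other variable genes did not peak on array 3, such as *Tat* (6.49, against 9.55 on array 6) and *Pck1* (12.84, against 13.61 on array 5). Whether the genes named here share a state of this mouse was not tested. Conversely *Apol10a* was lowest there, at 11.05 against 13.13 to 14.14, and *Apol10b* at 8.99 against 10.69 to 11.88. *Pip5k1a*, at 14.42 on array 3, had a second probe that barely moved, with an SD of 0.10. Of the 30 genes, 17 stayed among the 30 largest SDs when array 3 was left out, fewer than without any other array.

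The clock output gene *Dbp* read 9.67, 9.86, 10.03, 8.57, 11.77 and 10.17, highest on array 5, and its second probe followed the same order at both ends. *Per1* was also highest on array 5 (11.68), while *Arntl*, of the opposite arm of the clock, was lowest there (7.51 against 8.19 to 8.52). *Enpp3*, an ectoenzyme of the brush border, was lowest on array 4 at 9.38, against 10.86 to 12.31, and so was its second probe. In all, 9 of the 30 genes had a second probe that was well above background on all 6 arrays. For 6 of them it was highest on the same array, for 6 lowest on the same array, and for 4 its own SD exceeded 0.5.

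**Figure D4:**
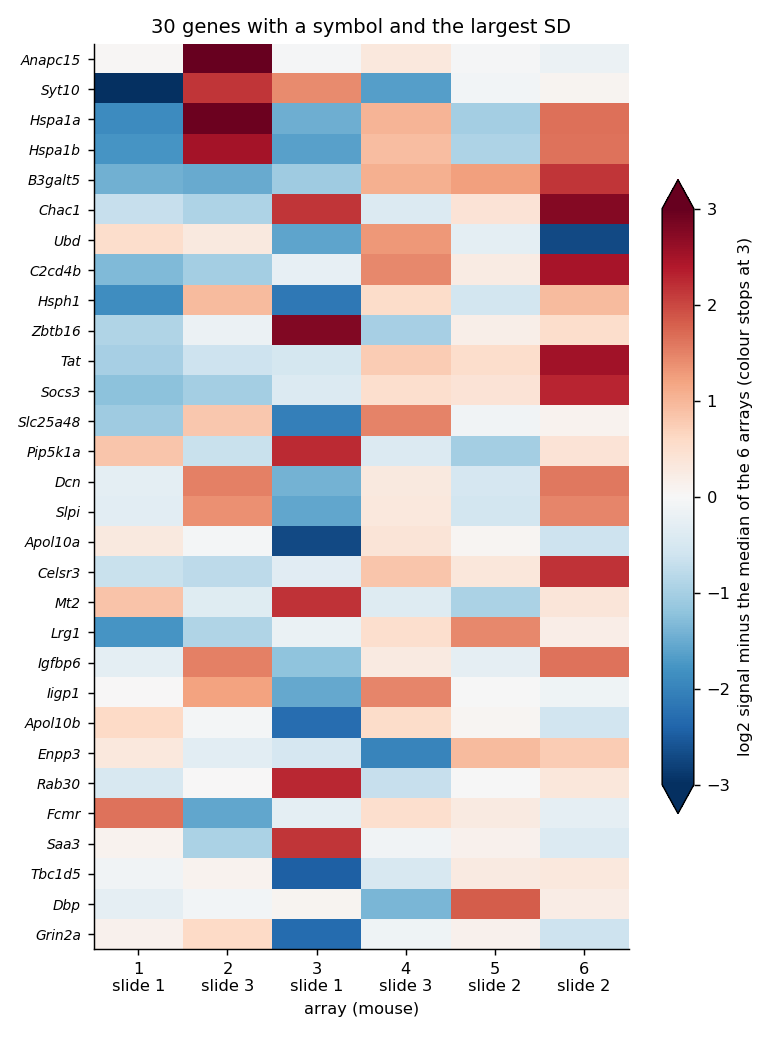
Rows are the 30 genes with a symbol and the largest SD, columns the 6 arrays with their slides, and the colour gives the log2 signal minus the median of the gene over the 6 arrays. *Anapc15* deviates on array 2 alone, the heat shock genes are high on arrays 2, 4 and 6, and *Socs3* and *Tat* are highest on array 6.

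Cell type and function lists also moved from mouse to mouse, as the means over their detected genes show. Arrays are named where the mean of a list was highest or lowest. That choice raises the counts of genes highest or lowest there. On array 4 the cycling list was highest, with a mean of 11.36 against 10.57 to 11.02, and 15 of its 16 genes had their highest value there. *Mki67* read 12.29 on array 4 and 11.51 to 11.91 on the others. The absorptive enterocyte list was lowest on the same array, 14.62 against 15.10 to 15.38, with 16 of 20 genes lowest there. So were sugar digestion and transport (12.55 against 13.46 to 13.71, 11 of 12 genes), fat absorption (13.46 against 14.07 to 14.40, 13 of 16 genes), drug metabolism (12.04 against 12.45 to 12.79, 18 of 26 genes) and the Paneth cell list (14.67 against 14.94 to 15.29, 11 of 13 genes). The glucose transporter *Slc2a2* read 9.85, 10.43, 10.42, 7.99, 10.03 and 9.81 on arrays 1 to 6, and *Fabp1*, the liver-type fatty acid binding protein, 16.09, 16.28, 16.43, 14.54, 15.77 and 16.33. Over all genes tested, 21.6% were highest and 19.5% lowest on array 4. The lists share some genes, and these counts stem from 1 mouse.

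Some immune lists spanned more and others less. The range of the array means was 1.48 log2 units for B cells, 1.32 for interferon-induced genes and 1.27 for T cells and for MHC class II, against 1.16 for sugar digestion and transport. It was 0.70 for innate lymphoid cells, 0.58 for mast cells, 0.57 for dendritic cells, 0.24 for macrophages and 0.22 for neutrophils. B cell genes averaged 8.18 on array 1 and 6.70 on array 2. On array 1, 8 of 9 genes were highest, against 15.0% of all genes tested, though the array was picked by the list mean. *Ms4a1*, which encodes CD20, read 9.19, 6.38, 7.11, 8.27, 7.90 and 7.45 on arrays 1 to 6, and *Fcmr*, the IgM receptor, 9.43, 6.24, 7.50, 8.30, 8.07 and 7.51. Lymphoid follicles lie scattered along the ileum, and the number of follicles in each sample is not known. T cell genes averaged 10.27 on array 1 and 1.27 log2 units less on array 6, where 18 of 21 genes were lowest. Interferon-induced genes ranged from 9.37 on array 6 to 10.70 on array 2, and MHC class II genes from 11.08 on array 6 to 12.35 on array 4. *Ubd*, a ubiquitin-like protein that interferon gamma induces, read 12.37, 12.13, 10.25, 13.13, 11.56 and 9.13, and *Ciita*, the master regulator of MHC class II, was at 9.90 and 10.38 on arrays 3 and 6 and at 11.02 or more elsewhere. Arrays 3 and 6 were thus the 2 lowest for both. Over all genes tested, array 6 was lowest for 15.8%.

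**Figure D5:**
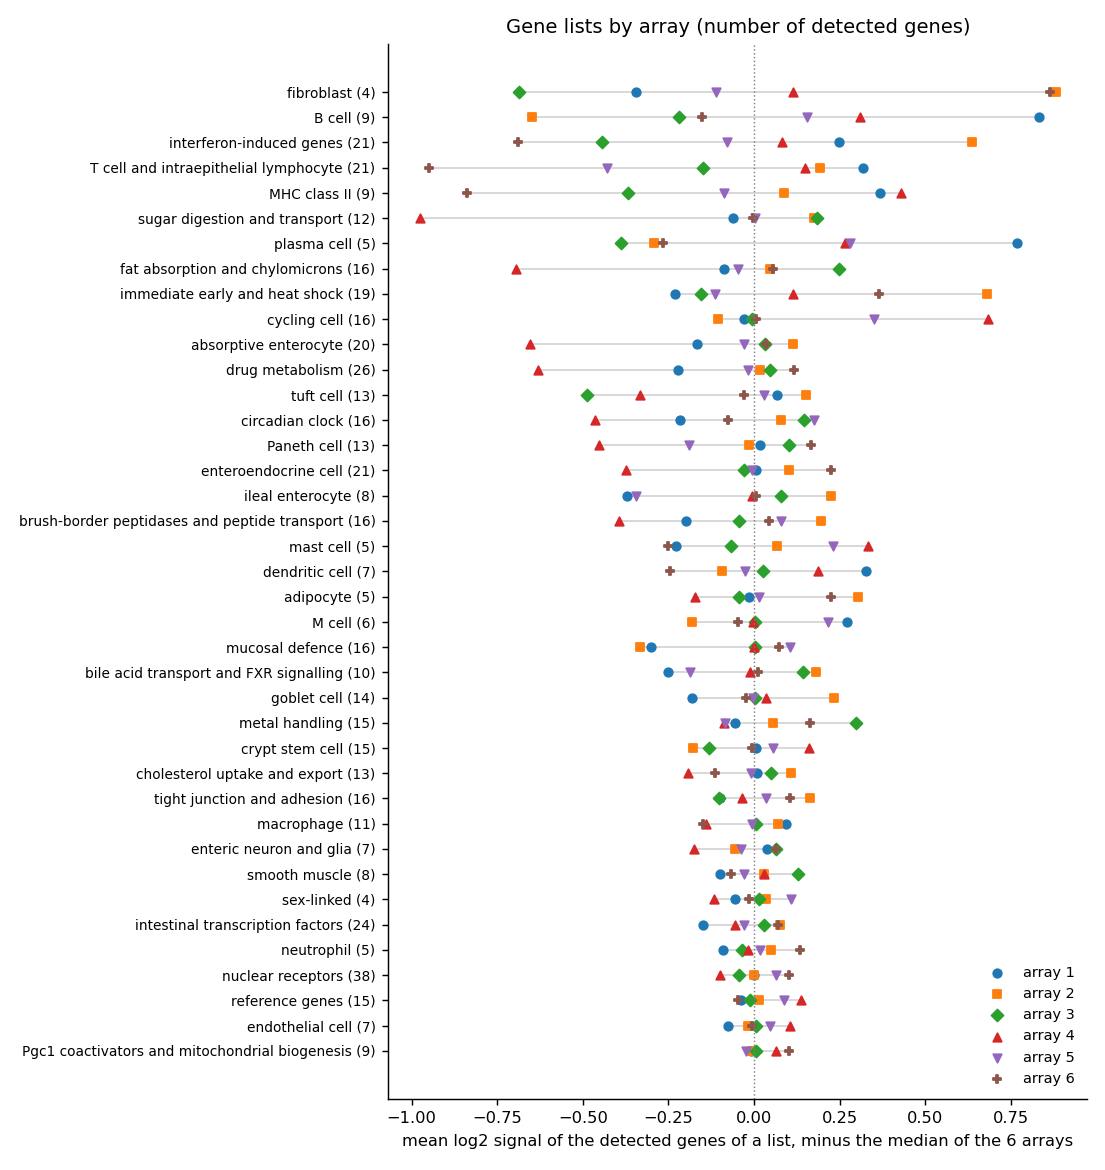
Each row is a list with its number of detected genes, and each symbol gives, for 1 of the 6 arrays, the mean log2 signal over those genes minus the median of the 6 arrays. The cycling list is highest and the lists of enterocytes, sugar and fat absorption are lowest on array 4, the B cell list is highest on array 1, and the T cell, interferon and MHC class II lists are lowest on array 6.

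List means of plasma cell genes and of immediate early and heat shock genes ranged over 1.16 and 0.91 log2 units. The means of some other lists moved little. That over the 9 genes of Pgc1 coactivators and mitochondrial biogenesis spanned 0.13 log2 units over the arrays, that over 36 complex I subunits 0.14 and that over 15 reference genes 0.18. Single genes of the first list moved more than its mean, with a median SD of 0.23 against 0.18 for all detected names and 0.46 for *Ppargc1a*. *Sdha*, of respiratory complex II, had an SD of 0.03. The smallest SDs among genes brighter than the median were those of *Kctd14* (0.02), whose probe holds a shared word, *Atp8b5*, *Tsnax*, *COX2*, *Ccar1*, *Bcdin3d*, *1810021B22Rik*, *Mgst3*, *Scamp2* and *Asap2*, all at 0.03 or less. At the top of the scale quantile normalization itself brings the arrays together, so that *Rn18s*, the brightest name at 18.64, had an SD of 0. The transcript *Xist*, which coats the inactive X chromosome of females, was detected on 0 of 6 arrays, and the Y-linked *Ddx3y*, *Eif2s3y*, *Kdm5d* and *Uty* on all 6, with *Eif2s3y* at 9.29 to 9.59.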

How the data were processed

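Cy3-labelled cRNA from ileum cells of 6 Pgc1α fl/fl mice on chow was read on Agilent SurePrint G3 Mouse GE v2 arrays, 1 array per mouse. Per array, the authors deposited spot intensities, which Feature Extraction 10.10.1.1 had read and which are not normalized, and a log2 table of 33095 probes, corrected for washing bath and labelling serial and normalized with qsmooth. That correction was not repeated because the labels do not name the batches. For a single group qsmooth is quantile normalization, which was applied to the log2 median signals, and the resulting values correlated with the authors' log2 values at 0.9999 or more on every array.

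Leaving out control spots and 52 to 71 outliers on each array, and averaging repeated spots, gave 56605 probes for 37074 gene names, of which 23666 matched a symbol and 1121 a synonym in the RefSeq table of GRCm38.p6. The brightest probe stood for each name. Spread was tested in limma 3.58.1 (R 4.3.3) as the variance over 6 arrays against the robust trend over mean signal, and slides by lmFit and eBayes with a moderated F test, each with Benjamini-Hochberg adjustment over 21133 genes well above background on at least 5 arrays. Both were tested on simulated data. The number of arrays and the signal over background limit the precision.

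Named are the 30 brightest symbols, the 30 with the largest SD, the 10 with the smallest SD above the median signal, genes of the marker and function lists, *Ppargc1a*, and the brightest member of a family. *Fkbp5*, *Angptl4*, *Rn18s* and the genes first among the brightest without shared-word probes were added after their values were seen, as was the search for shared words itself. Members and lists were chosen with earlier results of these data known. Alternatives were other detection flags, signals, normalizations, probe rules and filters, the authors' table and each array left out. Tables were handled with the data.table package (version 1.17.8), pandas 2.3.3 and numpy 2.4.6, plots with matplotlib 3.10.9 in Python 3.11.15.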

Additional observations from a re-analysis of the deposited data

Results flagged for a closer look

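For 197 values, of 184 genes and 13 lists, the 6 arrays were searched for 1 array whose distance to the nearest other array took up more of the whole range than Dixon's critical value for 6 samples allows. The 197 values are those of genes and lists that the text names, some of them picked for a large SD on these same arrays. Their share therefore cannot be set against that of all genes or of chance. Chance alone gives this for about 1 group in 20, it held for 6.34% of all genes tested for spread, and here it held for 19 values (9.64%).

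Array 4 stood apart, on the low side, for 10 of them. They were lactase (*Lct*, 13.47 with the nearest other array at 15.21), *Slc2a2* (7.99, nearest 9.81), *Fabp1* (14.54, nearest 15.77), *Apoa4* (15.20, nearest 16.25), *Apob* (14.82, nearest 15.28), *Abcg5* (14.16, nearest 14.76) and *Lyz2* (14.44, nearest 15.34), and the list means of absorptive enterocytes (14.62, nearest 15.10), of sugar digestion and transport (12.55, nearest 13.46) and of fat absorption (13.46, nearest 14.07). Several of these genes belong to the same lists and all values come from 1 mouse, so they are not independent.

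Array 3 stood apart on the high side for *Hoxa3* (7.39), *Rab30* (10.57) and *Saa3* (8.95) and on the low side for *Apol10a* (11.05) and *Il25* (4.42, near the floor). Array 2 stood apart on the high side for *Anapc15* (18.19, nearest 11.07), and array 5 on the low side for *Arntl* (7.51). *Sdha* on array 6 (12.74, nearest 12.79) and *Cyp1a1* on array 1 (4.28, below background on every array) differed by amounts too small to read as levels.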

How the results depend on the processing

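The number of detected genes, 20355, ranged from 16448, when every probe of a gene had to pass, to 24415, with the weaker flag of positive and significant signal. The latter flag counted 572 of the 668 marker and function genes as detected in place of 520. Of the 30 brightest genes, 27 to 30 stayed under other signals and normalizations and in the authors' table, 15 with the mean over all probes of a gene and 10 with shared-word probes left out, an alternative chosen after seeing the data. The test of spread called 10 genes with no filter on dim probes and 0 under the other alternatives, and the test of slides 0 throughout (limma). With 1 array left out, between 20403 and 20618 genes were detected, the test of spread called 0 and all 30 brightest genes stayed. With the mean over probes, the SD of *Tbc1d5* went from 1.05 to 0.27 and that of *Anapc15* to 0.74. With slide means removed, that of *Hsph1* went from 1.40 to 0.65. The causes were not tested. No paired analysis was possible because a single group of mice was described. Signal over background sets the limit: under about 5 log2 units no level can be read.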
